A study of Mus musculus with 24 samples.

Results

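The T cell receptor complex and its costimulatory receptors were followed through 10 genes: Cd3d, Cd3e, Cd3g, Cd247, Cd4, Cd28, Ctla4, Icos, Pdcd1 and Lat. They were picked out by symbol, by a rule that holds no measured value, though the set was proposed with earlier results of these data known, and all 10 were present among the 23420 gene symbols counted in each of 24 mouse libraries. RNA was sequenced from Th2 cells and from bone marrow-derived macrophages (BMDMs) of mice in which Tdg or the Tet genes had been deleted. TDG is the glycosylase that removes oxidised forms of 5-methylcytosine, and the TET dioxygenases make those forms. The 8 Th2 libraries were 4 TDG iKO and 4 WT. The 16 BMDM libraries came from a cohort for Tdg, of TDG iKO mice beside WT, and from a separate cohort for the Tet genes, of TET iTKO mice (Tet1, Tet2 and Tet3 floxed) beside WT, with 2 libraries per genotype without stimulation (0 h) and 2 after 6 h of Kdo2-lipid A (KLA), a Toll-like receptor 4 agonist.

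In both knockouts (C57BL/6, used at 8 to 16 weeks) the floxed alleles were deleted by Cre-ERT2, a recombinase made under the ubiquitin C promoter and active only with tamoxifen, and the control mice received tamoxifen as well. Th2 cells came from naive CD4+ T cells sorted as CD25-, CD62L high and CD44 low. They were stimulated for 2 days through plate-bound anti-CD3 and anti-CD28 with 1000 U/ml IL-4 and anti-IFN-γ, then grown for 3 days in 20 U/ml IL-2, so every Th2 library came from cells whose CD3 and CD28 had been engaged in culture. BMDMs were grown from bone marrow with L929-conditioned medium, and served as cells that should lack the T cell receptor.

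The αβ T cell receptor has no signalling tail of its own, and it reaches the surface only with the CD3δ, CD3ε and CD3γ chains and the ζ chain encoded by Cd247. CD4 binds MHC class II and brings the kinase LCK to the complex, which phosphorylates the CD3 and ζ tails; ZAP70 then docks there and phosphorylates the adaptor LAT, on which the downstream complexes assemble. CD28 and ICOS add costimulation, while CTLA-4, which competes for the CD28 ligands, and PD-1, encoded by Pdcd1, restrain it; ICOS, CTLA-4 and PD-1 are known to be induced by activation.

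The genes lie in clusters (build mm9). Cd3g, at chr9:44777655-44788514 on the minus strand, and Cd3d, at chr9:44789876-44795135 on the plus strand, are divergent neighbours whose starts are 1362 bases apart, and Cd3e, at chr9:44806826-44817673 on the minus strand, faces Cd3d tail to tail. Cd28, at chr1:60773644-60830203 on the plus strand, Ctla4, at chr1:60943844-60972676 on the plus strand, and Icos, at chr1:61034771-61057164 on the plus strand, follow each other in the same orientation. Pdcd1 lies at chr1:95934884-95949130 on the minus strand, Cd247 at chr1:167718812-167807407 on the plus strand, Cd4 at chr6:124814710-124838239 on the minus strand and Lat at chr7:133507346-133513057 on the minus strand. Cd247 overlaps the opposite-strand gene Pou2f1, and because the strand setting of the counting was not given, reads of this overlap cannot be told apart; Ctla4 overlaps the pseudogene Rpl18-ps1.

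The 250 bases upstream of the start of the 3 CD3 genes and of Ctla4 are shown, because they were members with a window in the sequence table that differed in opposite directions between sets of Th2 replicates, and because TET and TDG act on CpG dinucleotides. They are from RefSeq (GRCm38.p6), read 5′ to 3′ on the gene's strand, with each CpG in capitals: Cd3d at chr9:44981536-44981785 on the plus strand, Cd3g at chr9:44980432-44980681 and Cd3e at chr9:45009612-45009861 on the minus strand and Ctla4 at chr1:60908775-60909024 on the plus strand.
Cd3d: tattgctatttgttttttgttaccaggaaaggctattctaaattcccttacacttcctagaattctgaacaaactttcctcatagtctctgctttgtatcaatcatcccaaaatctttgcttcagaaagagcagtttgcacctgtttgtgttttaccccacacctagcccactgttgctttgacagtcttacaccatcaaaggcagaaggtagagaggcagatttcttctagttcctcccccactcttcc
Cd3g: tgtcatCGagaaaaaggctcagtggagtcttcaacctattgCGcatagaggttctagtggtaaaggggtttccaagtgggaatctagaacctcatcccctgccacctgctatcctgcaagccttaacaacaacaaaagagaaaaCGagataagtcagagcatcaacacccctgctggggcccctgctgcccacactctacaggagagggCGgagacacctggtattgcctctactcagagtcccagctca
Cd3e: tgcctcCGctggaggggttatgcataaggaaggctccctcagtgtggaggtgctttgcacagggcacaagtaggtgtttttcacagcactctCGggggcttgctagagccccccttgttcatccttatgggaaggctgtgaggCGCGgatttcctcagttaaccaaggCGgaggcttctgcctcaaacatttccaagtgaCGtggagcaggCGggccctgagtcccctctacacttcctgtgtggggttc
Ctla4: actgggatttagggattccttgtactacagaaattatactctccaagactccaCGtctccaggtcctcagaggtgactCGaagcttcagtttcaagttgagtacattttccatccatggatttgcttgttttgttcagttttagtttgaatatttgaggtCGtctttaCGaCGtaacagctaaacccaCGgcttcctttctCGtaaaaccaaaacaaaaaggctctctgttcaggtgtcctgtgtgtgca

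The Cd3d window held no CpG, which was true of only 7.87% of 32851 promoter windows of this length, against a median of 6 CpG. Its neighbour Cd3g held 4, Cd3e 7, Ctla4 7, Lat 6, Cd247 3 and Pdcd1 3. The letters GGAAA, the core that NFAT proteins recognise, were found on either strand in 6 of the 7 windows (Cd247 had none) and in 55.6% of all windows. These are matches of letters, and no methylation was measured in these libraries.

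The Th2 libraries held 7641848 to 26657729 counts assigned to genes and the BMDM libraries 4982950 to 21503302. Th2 replicates 3 and 4 of each genotype differed by little more than counting noise (mean chi-square per gene 1.34 to 1.51, against 21.3 to 218 for other pairs), so they were counted as 1 sample and n was 3 per genotype. Replicates 3 and 4 also stood apart from replicates 1 and 2 in technical tallies: counts outside genes equalled 27.8% to 30.9% of assigned counts against 19.2% to 25.4%, and the ribosomal RNA gene Rn45s took 0.347% to 0.387% against 0.840% to 8.34%. TDG iKO replicate 1 was the only Th2 library with counts from Y-linked genes above a floor of 3. Tdg itself reached at most 0.813 CPM, a count scaled to a common library total, in Th2 WT and 0.201 in BMDM WT, and Tet2 and Tet3 were not lower in the TET iTKO libraries, so counts per gene did not check the deletions and genotypes are those of the labels. The study had measured the deletions in Th2 cells by qRT-PCR of the floxed exons, which counts per gene do not separate. Th2 identity was checked by Gata3 (268 to 467 CPM) and Il4 (40.4 to 92.2 CPM). The Th2 cytokines Il5 and Il13 were as low as 2.68 and 7.05 CPM in their lowest libraries. Of the markers of other cells, Ncr1 and Csf1r were listed at 0 in all 8 libraries and Cd8a at 2.49 CPM or less. The macrophage marker Emr1 (Adgre1) was present at 6.88 to 55.6 CPM and the CD8 T cell marker Cd8b1 at 14.9 to 22.1 CPM. Absence of other cells was therefore not shown.

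All 10 members were detected in all 8 Th2 libraries, over a wide range of levels. On a per-length scale (CPM per kb of exon, WT mean ± SD, n = 3), the adaptor Lat was at 483 ± 6.50, Cd3g at 356 ± 124, Cd3d at 339 ± 91.4, Cd4 at 135 ± 36.1, Cd3e at 118 ± 47.3 and Cd247 at 63.5 ± 10.1. The activation-induced receptors followed, with Icos at 49.6 ± 21.4 and Ctla4 at 43.3 ± 16.5, and Cd28 at 4.95 ± 0.804 and Pdcd1 at 3.25 ± 0.840 were the lowest. The neighbours Cd3g and Cd3d, Cd4 and Cd3e, and Icos and Ctla4 differed by less than their SDs, and Cd247 and Icos by less than the larger of theirs. The level of Cd247 depends on the length used, 4602 bases of summed exons or 2713 bases of its longest transcript. By longest transcript, the mean of the WT libraries was 112.5 for Cd247, 46.1 for Icos and 131 for Cd3e, with the order of the members unchanged. Measured on the same scale within each library, Cd3d exceeded Cd3e by 2.57 to 4.05 times and Cd3d and Cd3g stayed within 0.842 to 1.02 of each other. Cd28 was at 0.0804 to 0.259 of the level of Ctla4, the receptor that competes with it for ligands.

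**Figure D1:**
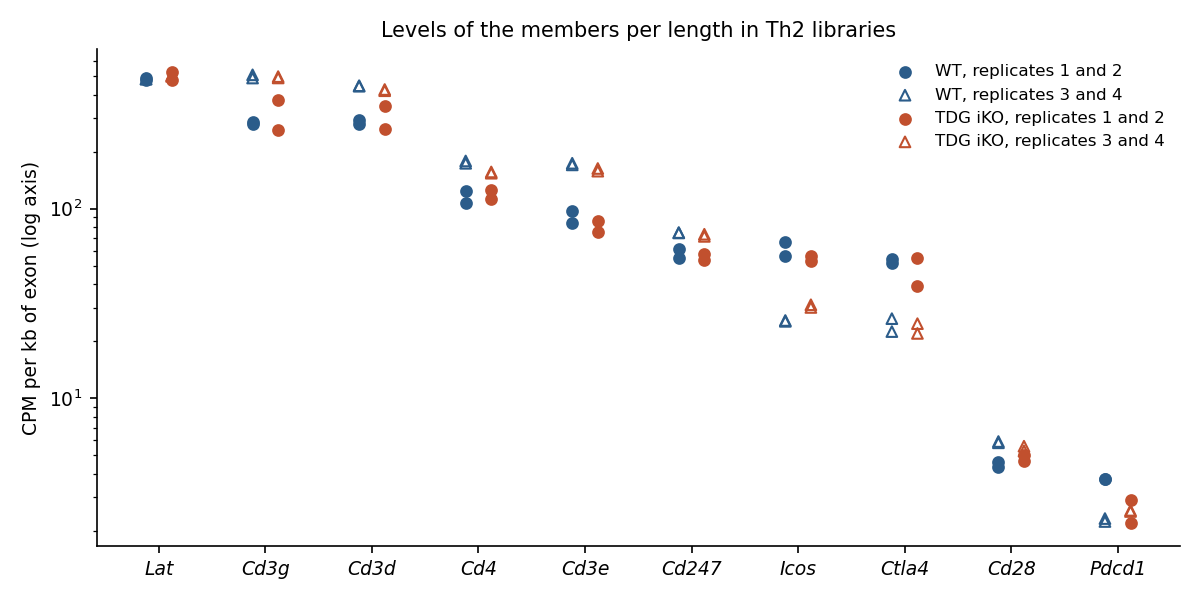
Levels of the 10 members in the 8 Th2 libraries, in CPM per kb of exon on a log axis, ordered by the WT mean. Lat varied least between libraries (477 to 527), and Icos and Ctla4 were lower in replicates 3 and 4 (open triangles) than in replicates 1 and 2 (filled circles).

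The first comparison asked whether loss of TDG changed the members in Th2 cells. No difference between TDG iKO and WT cells passed the test for any member: the 10 log2 fold changes lay between -0.29 (Pdcd1) and 0.11 (Cd3g), each smaller than its standard error, and the genotypes overlapped for all 10. None of the 10 passed an adjusted p of 0.05, nor an unadjusted one, by DESeq2 or by edgeR. The background was the same, with 0% of 15826 genes called (77 at an unadjusted p under 0.05 by DESeq2 and 55 by edgeR), and with 3.47% of genes without overlap between the genotypes. This fit held no term for the replicate set, so differences between the sets entered its spread. With the set as a covariate 42 genes were called, no member among them. Among markers of other cells, the genotypes did not overlap for Foxp3, the regulatory T cell factor, at 44.3 ± 8.85 in WT and 22.1 ± 8.72 in TDG iKO cells (normalised counts, SD, n = 3), and Cd8b1, at 193 ± 5.35 in WT and 248 ± 38.1 in TDG iKO cells. Nor did they for the Th17 cytokine Il17a, at 6.27 ± 5.94 in WT and 0 in every TDG iKO sample. Il17a was near the floor, with 0 to 8 raw counts per library and at most 0.451 normalised counts in replicates 3 and 4. None of these 3 was called, and their part in the members' values was not tested. In bulk RNA, fewer cells of a type and less RNA per cell cannot be told apart.

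Among the receptor chains, mean normalised counts (± SD, n = 3) of Cd3d were 5562 ± 1309.7 in WT and 5799.8 ± 1025 in TDG iKO cells. Those of Cd3e were 2096 ± 777 in WT and 1939 ± 711 in TDG iKO cells, and those of Cd247 were 3636 ± 445 in WT and 3593 ± 353 in TDG iKO cells. The Cd4 means were nearly equal, 5219.9 ± 1205 in WT and 5192 ± 554 in TDG iKO cells. The adaptor Lat, the most even member, was at 7469 ± 247 in WT and 7987 ± 594 in TDG iKO cells, and its 95% interval for the log2 difference was -0.17 to 0.36.

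Among the costimulatory and inhibitory receptors, Cd28 was at 268 ± 34.2 in WT and 281 ± 7.84 in TDG iKO cells, Icos at 2137 ± 947 in WT and 2078 ± 714 in TDG iKO cells and Ctla4 at 1054 ± 426 in WT and 984 ± 429.7 in TDG iKO cells. Pdcd1, with 45 to 115 raw counts per library, was at 78.6 ± 22.4 in WT and 63.3 ± 10.6 in TDG iKO cells. The 95% interval of the log2 difference was -0.98 to 0.78 for Ctla4 and -0.90 to 0.82 for Icos, and the difference of Pdcd1 was -0.29 ± 0.36 (SE), so differences approaching 2-fold remained inside the intervals. With the replicate number as a block, 15 genes were called and again no member. The intervals narrowed to -0.36 to 0.14 for Ctla4, -0.22 to 0.25 for Icos and -0.32 to 0.10 for Cd3e. The block takes same-numbered samples as pairs, which rests on the sets of replicates. Within replicates 1 and 2 the deviations of same-numbered samples did not go together (r = -0.14).

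For 8 of the 10 members the direction differed among the 4 same-numbered pairs. Lat was the member higher in TDG iKO in all 4 pairs and Cd3e the member lower in all 4. Pairs 3 and 4 are near-identical and are not separate samples, and the pairing by number has the limit given above. How often genes outside the members kept their direction over the pairs was not counted. Pdcd1 was lower in TDG iKO replicates 1 and 2 (55.8 and 75.4 against 93.7 and 89.1 in WT) and higher in replicates 3 and 4 (59.0 and 58.3 against 53.9 and 51.9). Cd28 went the opposite way, higher in TDG iKO in replicates 1 and 2 and lower in 3 and 4. The interaction of genotype with the replicate set called 0 of 10 members (0 at an unadjusted p under 0.05 by either DESeq2 or edgeR) and 0.0855% of 11690 genes (10 genes by DESeq2, 3 by edgeR, 162 with 8 separate libraries and 2 to 13 leaving out a library: 2 without TDG iKO replicate 1 and 4 without WT replicate 1 or 2), with an estimate of 0.64 ± 0.72 (SE) for Pdcd1 and -0.31 ± 0.38 for Cd28.

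Within replicates 1 and 2 alone no member was called, with the largest log2 difference for Pdcd1 (-0.50 ± 0.43, SE). Within replicates 3 and 4 alone, 3 members were called: the log2 difference of Cd4, lower in TDG iKO, was -0.19 ± 0.03 (SE; DESeq2, adjusted p = 4.31e-09), that of Cd3d, also lower, was -0.08 ± 0.03 (SE; DESeq2, adjusted p = 0.0198), and that of Icos, higher, was 0.25 ± 0.06 (SE; DESeq2, adjusted p = 0.00102). That fit compares near-identical libraries of each genotype and called 1964 of 9851 genes, 940 higher and 1024 lower. Its p-values measure the spread between those libraries, which may be technical.

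**Figure D2:**
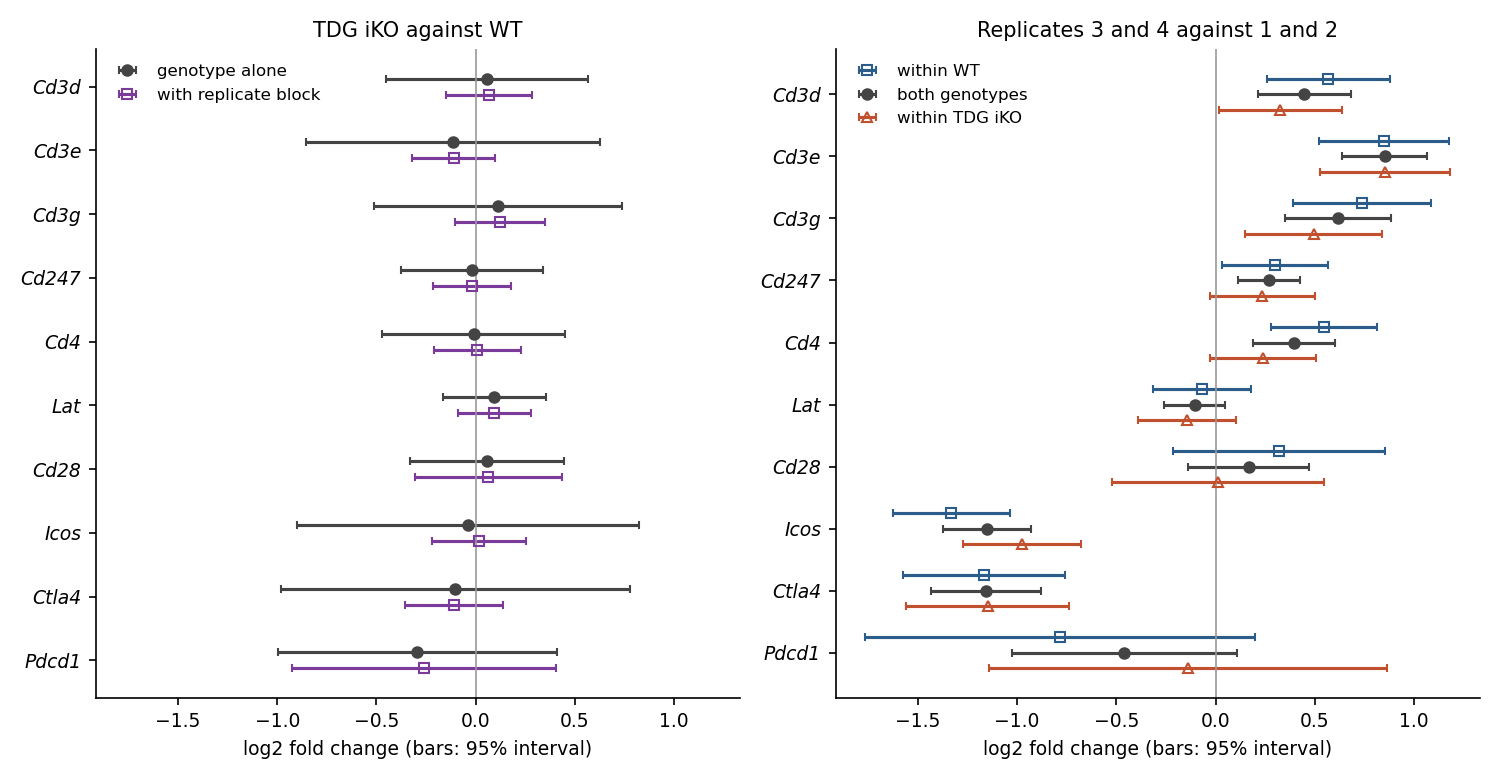
Log2 fold changes of the members in Th2 cells with 95% intervals: left, TDG iKO against WT without and with the replicate block; right, replicates 3 and 4 against 1 and 2, over both genotypes and within each. All intervals at the left include 0, while on the right the CD3 chains lie above 0 and Icos and Ctla4 below it in both genotypes.

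Of the 44 other genes of T cell receptor signalling, a list of kinases, adaptors and phosphatases, 0 were called between the genotypes, with a median log2 fold change of -0.05 beside -0.01 over all genes tested. The smallest unadjusted p in this list belonged to Themis, a thymocyte-expressed regulator of receptor signalling, at 0.43 ± 0.22 (log2 ± SE), and Ptpn6, a phosphatase, at 0.17 ± 0.16. Of 16 other costimulatory and inhibitory receptors 0 were called, with a median of 0.07. There the smallest unadjusted p belonged to the inhibitory receptor Tigit, at -0.41 ± 0.21, and to Slamf6, at -0.29 ± 0.19.

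Larger differences lay between the replicate sets. In replicates 3 and 4 the CD3 chains, the ζ chain and Cd4 were higher than in replicates 1 and 2 and Ctla4 and Icos were lower, while Lat, Cd28 and Pdcd1 were not called. The called members kept these directions within WT and within TDG iKO cells alone, where replicates 3 and 4 were 1 sample. Not all of them were called within a genotype. Over both genotypes 5 of 10 members were called higher and 2 lower, beside 49.8% of 13193 genes called, 24.9% higher and 25% lower. The sets did not overlap for 8 of the 10 members and for 57.9% of all genes, counted over single libraries although replicates 3 and 4 of a genotype are 1 sample. Depth, the counts outside genes and Rn45s moved with the set, and their effects cannot be told apart from it.

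The normalised counts of Cd3e were 1820.3, 1495, 3005 and 2942 in WT replicates 1 to 4 and 1622, 1442, 2795 and 2712 in TDG iKO replicates 1 to 4. All libraries of replicates 3 and 4 (1 sample per genotype) were above all 4 of replicates 1 and 2, without overlap. Cd3e, whose chain pairs with both CD3δ and CD3γ, was the member that rose most, by 0.85 ± 0.11 (SE; DESeq2, adjusted p = 1.06e-13) on the log2 scale, or 1.81-fold.

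Cd3g had 3742, 3649.7, 6268 and 6018 normalised counts in WT replicates 1 to 4 and 5025, 3582, 5981 and 6091 in TDG iKO replicates 1 to 4. Replicates 3 and 4 were again highest in both genotypes, and TDG iKO replicate 1 lay between the sets. The difference was 0.62 ± 0.14 (SE; DESeq2, adjusted p = 2.69e-05).

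The normalised counts of Cd3d were 4812, 4799.8, 7101 and 7048 in WT replicates 1 to 4 and 6047, 4674, 6722 and 6636 in TDG iKO replicates 1 to 4. Here too the sets were separate, with TDG iKO replicate 1 closest to replicates 3 and 4. The difference was 0.45 ± 0.12 (SE; DESeq2, adjusted p = 0.000606), a fold of 1.36, and within TDG iKO cells alone it was 0.33 ± 0.16 (SE; DESeq2, adjusted p = 0.108).

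Cd247 had 3287, 3484, 4131 and 4142 normalised counts in WT replicates 1 to 4 and 3501, 3294, 3928 and 4038 in TDG iKO replicates 1 to 4. The ζ chain gene had the smallest called difference, 0.27 ± 0.08 (SE; DESeq2, adjusted p = 0.00235). It was not called within either genotype alone, with adjusted p = 0.0741 in WT and 0.187 in TDG iKO cells by DESeq2. The per-length ratio of Cd247 to Cd3e was 0.563 to 0.727 in replicates 1 and 2 and 0.429 to 0.465 in replicates 3 and 4, without overlap. The level of this ratio depends on the exon length taken for Cd247, while the separation of the sets does not. The ratio of Cd3d to Cd3e fell likewise from between 2.87 and 4.05 to between 2.57 and 2.66, whereas that of Cd3g to Cd3e overlapped, at 2.89 to 4.35 and 2.87 to 3.15.

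The normalised counts of Cd4 were 4324, 4746, 6688 and 6491 in WT replicates 1 to 4 and 5157, 4657, 5713 and 5812 in TDG iKO replicates 1 to 4. Cd4, the coreceptor by which the cells were sorted, was higher in replicates 3 and 4 by 0.40 ± 0.10 (SE; DESeq2, adjusted p = 0.000541). The difference was 0.55 ± 0.14 within WT and 0.24 ± 0.14 within TDG iKO cells, where it was not called (adjusted p = 0.187 by DESeq2).

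Icos had 2529, 2825, 1063 and 1050.4 normalised counts in WT replicates 1 to 4 and 2544, 2435, 1276 and 1237 in TDG iKO replicates 1 to 4. The sets were far apart, with no library of replicates 3 and 4 (1 sample per genotype) above 1276 and none of replicates 1 and 2 below 2435. Icos, the costimulatory receptor that activated T cells acquire, was lower in replicates 3 and 4, with a log2 difference of -1.15 ± 0.11 (SE; DESeq2, adjusted p = 4.62e-23), or 0.450 of the level in replicates 1 and 2.

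The normalised counts of Ctla4 were 1362, 1233, 524 and 612 in WT replicates 1 to 4 and 1398, 1015, 571 and 509 in TDG iKO replicates 1 to 4. The highest library of replicates 3 and 4 was still below the lowest of replicates 1 and 2. The difference was -1.16 ± 0.14 (SE; DESeq2, adjusted p = 3.09e-15), and it was called within each genotype, at -1.17 ± 0.21 in WT and -1.15 ± 0.21 in TDG iKO cells.

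The other 3 members were not called. Lat had 7692, 7512, 7201 and 7208 normalised counts in WT replicates 1 to 4 and 8611, 7922, 7463 and 7394 in TDG iKO replicates 1 to 4. The sets did not overlap for Lat, yet its difference was not called, at -0.11 ± 0.08 (SE; DESeq2, adjusted p = 0.259). The normalised counts of Cd28 were 246, 249, 305 and 309 in WT replicates 1 to 4 and 289, 273, 274 and 291 in TDG iKO replicates 1 to 4. The sets overlapped for Cd28, and its difference was 0.17 ± 0.16 (SE; DESeq2, adjusted p = 0.387). Pdcd1, the inhibitory receptor with the fewest counts, had a difference of -0.46 ± 0.29 (SE; DESeq2, adjusted p = 0.180), and its 95% interval of -1.03 to 0.11 included 0. Lat and Pdcd1 were called when the 8 libraries entered separately (adjusted p = 0.0236 and 0.0387 by DESeq2).

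The ratio of Icos to Cd28, both costimulatory receptors of the same cluster, was 11.2 to 14.4 per length in replicates 1 and 2 and 4.31 to 5.90 in replicates 3 and 4. The ratio of Cd28 to Ctla4 went from between 0.0804 and 0.120 to between 0.213 and 0.259. Neither ratio overlapped between the sets.

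**Figure D3:**
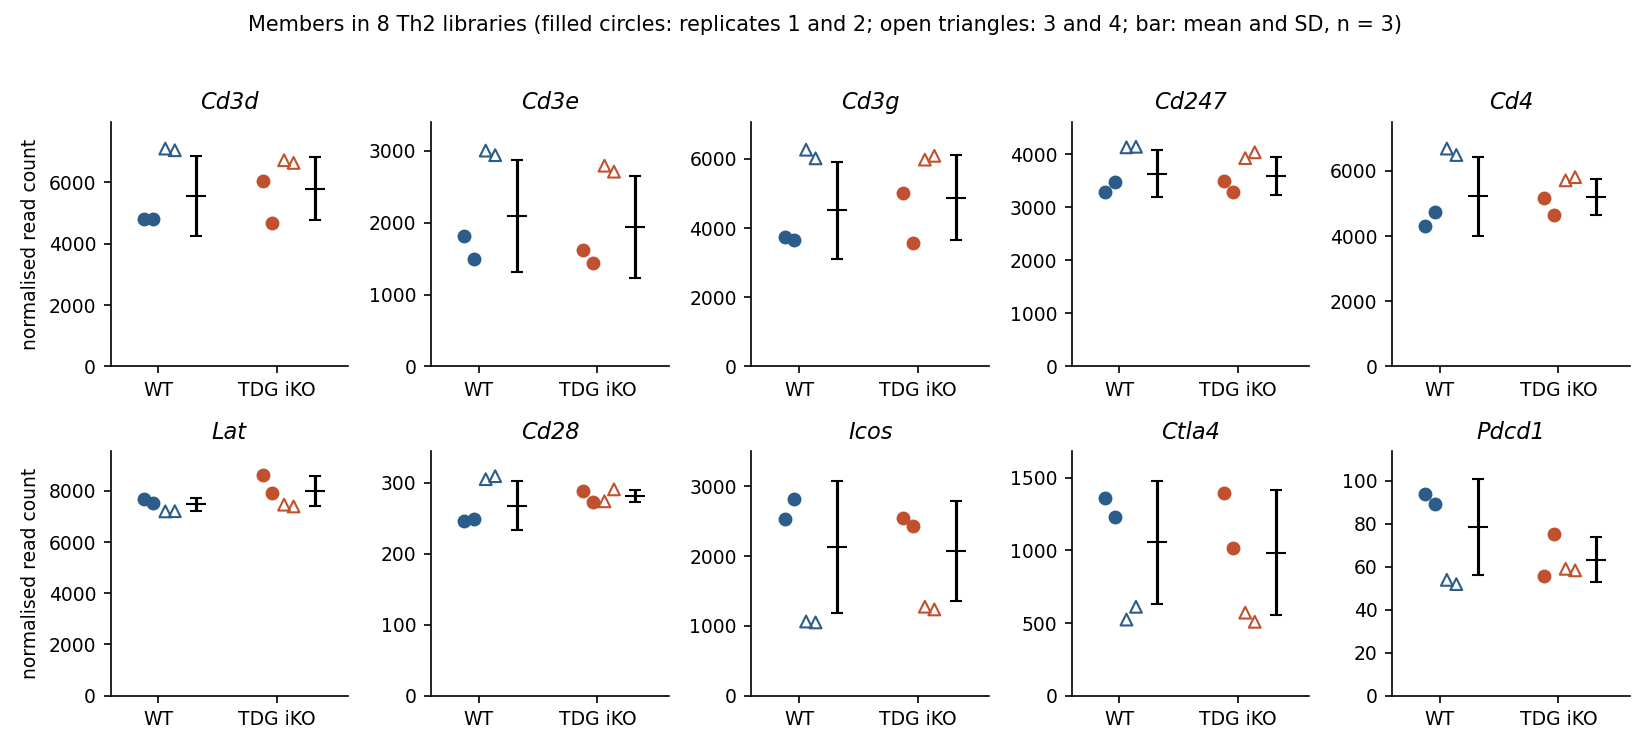
Normalised read counts of each member in the 8 Th2 libraries by genotype, with filled circles for replicates 1 and 2, open triangles for replicates 3 and 4, and bars for the mean and SD over 3 samples per genotype. The triangles lie above the circles for Cd3d, Cd3e, Cd3g, Cd247 and Cd4 and below them for Icos and Ctla4 in both genotypes.

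Markers of other cells and states moved with the set as well, and their part in the result was not tested. The summed level of 5 macrophage markers was 9.88 to 18.7 CPM in replicates 1 and 2 and 55.0 to 60.3 CPM in replicates 3 and 4, most of it from Adgre1 (listed as Emr1), while Csf1r was at 0 and Lyz2 at most 0.393 CPM in all 8 libraries. B cell markers summed to 1.04 to 2.49 CPM and 3.75 to 4.57 CPM, CD8 T cell markers to 14.9 to 22.2 CPM and 18.3 to 21.6 CPM, most of it from Cd8b1, and NK cell markers to 0.137 CPM or less. Cd8a, low throughout, did not overlap between the sets, with normalised counts of 0 to 1.07 in replicates 1 and 2 and 11.5 to 30.0 in replicates 3 and 4. Foxp3 was at 4.18 CPM or less, but Il2ra, the IL-2 receptor α chain that activated T cells also express, was lower in replicates 3 and 4, with normalised counts of 17335 to 23735 against 34736 to 41818. The Th1 and Th17 markers summed to 6.998 to 16.3 CPM in replicates 1 and 2 and 2.13 to 4.61 CPM in replicates 3 and 4. The summed level of 4 Th2 markers overlapped (425 to 581 CPM and 445 to 520 CPM), yet Il4 had normalised counts of 1090 to 1200 in replicates 1 and 2 against 486 to 579, Il5 257 to 347 against 31.97 to 43.8 and Il13 506 to 717 against 84.9 to 132.

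The signalling list leaned upward in the same comparison: 28 of its 44 genes were higher in replicates 3 and 4, 2 were lower and 14 were not called, beside the same 24.9% and 25% over all genes, with a median log2 fold change of 0.48 beside 0.00 over all genes tested. The largest differences among genes with a mean of at least 50 were those of Txk, a TEC-family kinase (3.36 ± 0.41, log2 ± SE), Trat1, a transmembrane adaptor of the receptor (2.56 ± 0.18), Pag1, the adaptor that holds the inhibitory kinase CSK (2.03 ± 0.12), and Sla2, an adaptor that restrains receptor signalling (1.75 ± 0.20). All 4 passed an adjusted p of 0.05 by DESeq2. Of the kinases that act first on the complex, Lck (0.12 ± 0.09) and Zap70 (0.13 ± 0.09) were not called and Fyn (0.70 ± 0.11) was higher; these 3 were named after their values were seen.

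The 16 other costimulatory and inhibitory receptors were divided, with 4 higher, 7 lower and 5 not called, beside 24.9% higher and 25% lower over all genes, and a median of -0.16 beside 0.00. Cd27 (1.32 ± 0.16), Cd226 (1.27 ± 0.35) and Cd96 (1.03 ± 0.22) were higher in replicates 3 and 4 and Cd200 (-1.35 ± 0.20) was lower. Of the TNF receptor family members induced by activation, Tnfrsf4 (-0.70 ± 0.10), Tnfrsf9 (-0.51 ± 0.13) and Tnfrsf18 (-0.63 ± 0.10) were lower; these 3 were named after their values were seen.

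**Figure D4:**
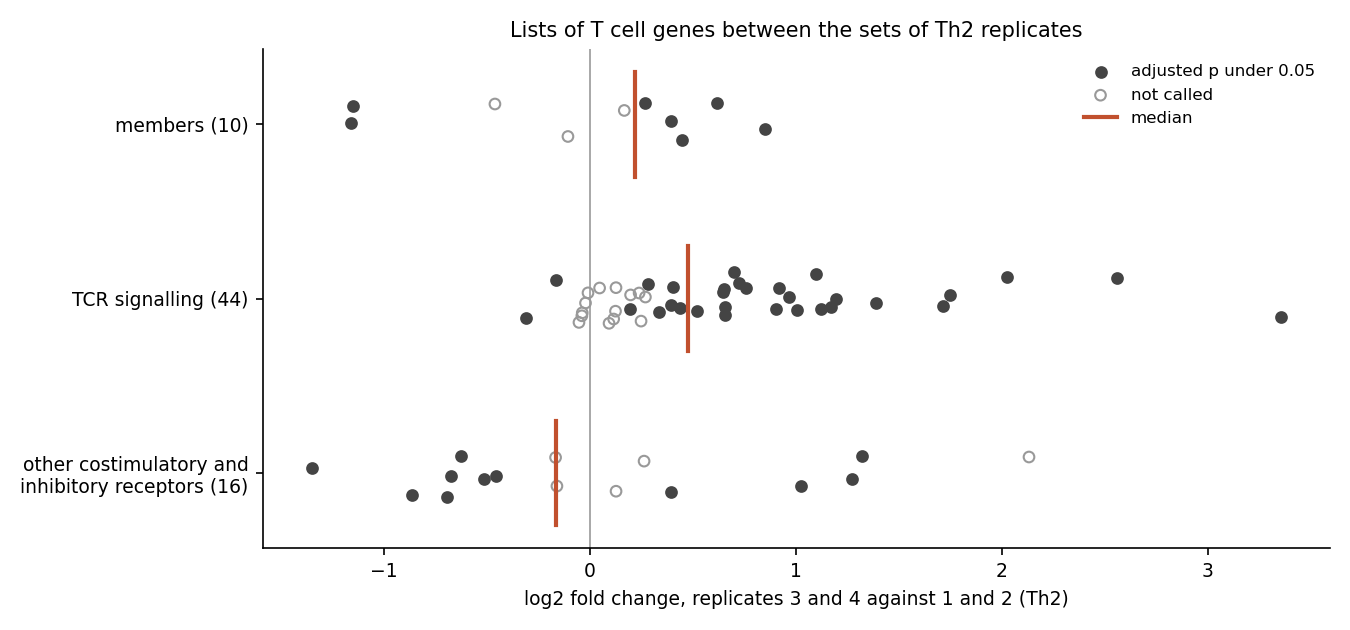
Log2 fold changes between replicates 3 and 4 and replicates 1 and 2 in Th2 cells for the 10 members and 2 lists of T cell genes, a point per gene, filled where the adjusted p was under 0.05, with the median as a bar. The medians were 0.22, 0.48 and -0.16, and both signs occurred in every list.

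The genes whose pattern was most like that of the CD3 chains over the 6 Th2 samples were AI987944, Il6ra, Crip1, Syt11 and Fam214a, with Pearson r of 0.998, 0.997, 0.997, 0.996 and 0.996 to the mean of Cd3d, Cd3e and Cd3g on a log2 scale. The points share the difference between the replicate sets, and 14.4% of 9078 genes with a mean of at least 100 had an r over 0.9. Among the members, r was 0.949 for Cd247 and 0.926 for Cd4, 0.779 for Cd28, and negative for Lat (-0.39), Pdcd1 (-0.80), Ctla4 (-0.83) and Icos (-0.94).

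In BMDMs the T cell receptor complex was close to absent. Ctla4 and Icos had 0 counts in all 16 libraries, and Cd3d, Cd3e and Cd3g had 0 to 5 counts per library. In unstimulated WT BMDMs Cd3e had 0 counts of 52393423. The Th2 WT level of 169 ± 68.0 CPM (SD, n = 3) was 2954 times a floor of 3 counts over the group (0.0573 CPM). The 95% exact Poisson upper limit of 0 counts was higher than this floor, at 0.0704 CPM. By the same floor Icos was at 2970 times and Ctla4 at 1463 times. Cd3d had 2 counts and Cd3g 1, giving Th2 ratios with 95% exact Poisson limits of 3251 to 96958 and 3424 to 753420; these limits cover counting error only.

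Other members had low but countable reads in BMDMs. Lat was 550.2-fold higher in Th2 WT cells (425 to 726, same limits), Pdcd1 32.8-fold (17.8 to 68.4), Cd4 22.5-fold (21.1 to 23.9) and Cd28 20.9-fold (16.01 to 27.8). These folds pool both BMDM cohorts, in which Cd4 stood at 9.75 CPM (Tdg) and 22.5 CPM (Tet). The folds fitted by DESeq2 were 349 for Lat, 20.1 for Cd4, 16.3 for Cd28 and 10.2 for Pdcd1. By DESeq2, 9 of the 10 members were called higher in Th2 cells, beside 4037 higher and 3588 lower of 13913 genes (54.8% called). Pdcd1 was the exception (adjusted p = 0.135), with 9 of its 10 counts in 1 library; edgeR called 10. The direction is that by which these genes are known as T cell genes.

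KLA stimulation bore on the few members with reads in BMDMs. Cd247, whose ζ chain also serves Fc receptors, was the clearest: in WT cells of the Tdg cohort its raw counts were 0 and 0 at 0 h and 18 and 40 at 6 h. In TDG iKO cells they were 2 and 0 at 0 h and 15 and 52 at 6 h. Within this cohort every stimulated library was above every unstimulated one. Pooled over WT replicates, the level at 6 h, 2.38 CPM, was 12.3 times the floor of 3 counts at 0 h. Cd247 was the member called in this cohort (adjusted p = 0.00355 by DESeq2), of 4 members tested and beside 8.6% of 11633 genes. That background of 1001 genes was 413 by edgeR, 2218 without WT replicate 1 at 0 h, 648 without WT replicate 1 at 6 h and 350 without WT replicate 2 at 6 h. edgeR did not call it (adjusted p = 0.0720), and the call was lost without WT replicate 1 at 0 h (0.0546) or WT replicate 2 at 6 h (0.0953).

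In the Tet cohort the counts of Cd247 were 1 and 6 at 0 h and 21 and 6 at 6 h in WT cells, and 3 and 6 and 27 and 40 in TET iTKO cells. WT replicate 2 did not rise in counts, whereas WT replicate 1 and both TET iTKO replicates did. The WT difference was 2.26 ± 1.02 on the log2 scale and was not called (adjusted p = 0.0939 by DESeq2).

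Cd28 moved the other way. Its counts in WT cells of the Tet cohort were 12 and 25 at 0 h and 0 and 3 at 6 h, and those in TET iTKO cells 21 and 30 and 12 and 8. Within each genotype both stimulated libraries were below both unstimulated ones. Pooled over WT replicates, the level at 0 h was 11.1 times that at 6 h (exact limits 3.53 to 56.4, counting error only). Cd28 was the member called here, at -3.31 ± 1.15 (SE; DESeq2, adjusted p = 0.0205), of 4 tested and beside 24.1% of 11917 genes, of which 54.1% were higher (38.8% when scaled by total counts, which put the median log2 change of all genes at -0.13). The background of 2874 genes was 1878 to 2801 when a library was left out (1878 without WT replicate 1 at 0 h). The call of Cd28 was lost without WT replicate 1 at 0 h (adjusted p = 0.0573), without WT replicate 2 at 0 h (0.175) and without WT replicate 1 at 6 h (0.229).

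In the Tdg cohort Cd28 counts in WT cells were 11 and 6 at 0 h and 1 and 2 at 6 h, a difference of -3.10 ± 1.63 (SE; DESeq2, adjusted p = 0.270). In TDG iKO cells they were 2 and 8 and 0 and 4, with overlap between the times. Cd4, the most abundant member in BMDMs at 60 to 569 counts per library, was not called by KLA in either cohort, with log2 differences of -0.36 ± 0.50 and -0.26 ± 0.28. Lat, at 3 to 22 counts, was not called either.

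**Figure D5:**
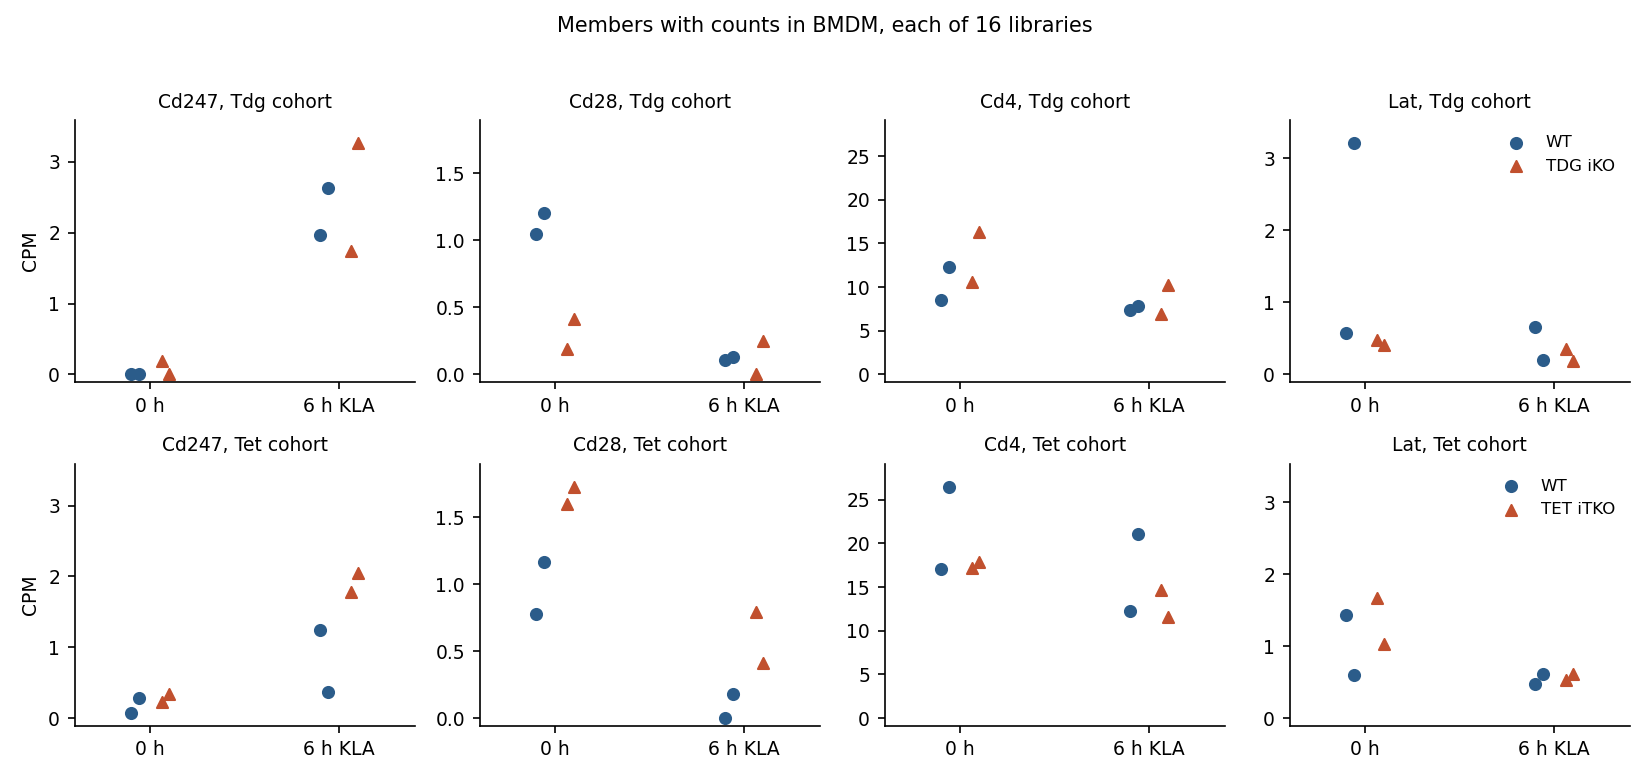
Levels in CPM of Cd247, Cd28, Cd4 and Lat in each of 16 BMDM libraries at 0 h and after 6 h of KLA, by cohort (rows) and genotype (circles WT, triangles knockout). Cd247 is between 0 and 0.345 CPM at 0 h and between 0.364 and 3.26 CPM at 6 h, while Cd28 lies between 0.192 and 1.72 CPM at 0 h and between 0 and 0.793 CPM at 6 h.

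Genotype did not call any member in BMDMs. For TDG iKO against WT, 0 of 8 members tested were called at 0 h and 0 of 8 at 6 h, with none at an unadjusted p under 0.05, beside 0% and 0% of 15026 genes (265 and 34 at an unadjusted p under 0.05 by DESeq2, 125 and 27 by edgeR). Leaving out a library gave 0 to 1177 genes at 0 h (1177 without WT replicate 1 at 0 h) and 0 to 2 at 6 h, with no member called. For TET iTKO against WT, 0 of 5 were called at 0 h, beside 7.5% of 12200 genes, and 0 of 4 at 6 h, beside 6.58% of 11634 genes. These backgrounds of 915 and 765 genes ran from 276 (without TET iTKO replicate 2 at 0 h) to 970 and from 264 (without TET iTKO replicate 2 at 6 h) to 703 when a library was left out; they were 386 and 434 without WT replicate 1 and 2 at 0 h and 414 without WT replicate 1 at 6 h, and no member was called. Cd28 at 6 h was the member with an unadjusted p under 0.05, at 2.64 ± 1.17 (SE; DESeq2, adjusted p = 0.201). The libraries of TET iTKO replicate 2 also held 18.8 and 21.8 CPM of 4 B cell markers, against 0.753 to 6.73 CPM in the other 14 libraries, and 5 and 6 counts of the 3 CD3 genes together; their part in the result was not tested. Members other than Cd4 had at most 52 counts in any BMDM library.

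The ligands of the members, which macrophages present to T cells, were measured beside their receptors. In WT BMDMs KLA raised Cd274, the ligand PD-L1 of PD-1, by 2.76 ± 0.57 and 2.17 ± 0.42 (log2 ± SE, Tdg and Tet cohorts) and Icosl, the ligand of ICOS, by 1.72 ± 0.38 and 1.89 ± 0.32, past the threshold in both by DESeq2; edgeR did not call Cd274 in the Tdg cohort (adjusted p = 0.0658). Cd86, a ligand of CD28 and CTLA-4, was higher in the Tet cohort (0.86 ± 0.24) and was not called in the Tdg cohort (0.71 ± 0.69). It was also higher in TET iTKO than in WT cells, by 1.35 ± 0.23 at 0 h (DESeq2, adjusted p = 6.54e-07) and 0.87 ± 0.23 at 6 h (0.00435, and 0.0564 by edgeR). Cd80 and Pdcd1lg2, the second ligand of PD-1, were not called by KLA in either cohort, although edgeR called Pdcd1lg2 in the Tet cohort (adjusted p = 0.0325), and 0 of the 5 ligands were called between TDG iKO and WT BMDMs or Th2 cells.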

How the data were processed

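Polyadenylated RNA was prepared as directional libraries and sequenced with paired reads on either of a pair of Illumina models (HiSeq or NovaSeq); which library ran on which was not given in the sources used here. The authors aligned reads to mm9 with HISAT2 and deposited raw counts per gene from HTSeq-count; the annotation, strand setting and aligner versions were not given. The study's own tests used DESeq2 1.30.0. Its rows for reads outside genes were left out of library sizes and tests.

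Groups were taken from the labels. Nothing in them ties replicates to separate mice, so p-values measure the spread between these samples, which may be technical. Th2 replicates 3 and 4 of a genotype were near-identical and their counts were summed into 1 sample. Counts were fitted over all genes with DESeq2 1.42.0 (R 4.3.3; Wald test, median-of-ratios factors, unshrunken log2 fold changes, Benjamini-Hochberg adjusted p under 0.05); normalised counts are counts divided by those factors. Each 95% interval of a fold is the estimate ± 1.96 SE. The genotype comparison used Th2 libraries alone, with genotype as its only term and no pairing. The replicate sets were compared with genotype as a covariate. Each BMDM cohort was fitted separately, without a term for the replicate number. In Th2 cells the deviations of same-numbered WT and TDG iKO samples correlated at 0.537, 0.759 and 0.923. The numbers were therefore taken as pairs in the replicate block, an alternative fit. This rests on the replicate sets: within replicates 1 and 2 the correlation was -0.14. Levels per length used the summed exons of an mm9 annotation, which may differ from that of the counting.

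Alternatives were edgeR 4.0.16 (quasi-likelihood), TMM factors, a filter of at least 10 counts in 2 samples, the replicate block, 8 separate libraries, each replicate set alone, leaving out each sample, and, added after the data were seen, scaling by total counts without Rn45s. The fits were run on simulated data in which 200 genes with a mean of at least 50 were changed by 2 on the log2 scale. These simulations do not bear on small differences or low counts such as those of the members. The members and lists were chosen with earlier results of these data known. The named list genes were, in each list, the up to 4 with the largest called change at a mean of at least 50, or, where none was called, the 2 with the smallest unadjusted p; the genes most like the CD3 chains had a mean of at least 100. Exact Poisson limits and the floor of 3 counts cover counting error only; at 4982950 to 26657729 counts a library this floor was 0.113 to 0.602 CPM. Promoter windows were matched by symbol to RefSeq, for 7 of 10 members.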

Additional observations from a re-analysis of the deposited data

How the results depend on the processing

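No alternative except the fit on replicates 3 and 4 alone called a member between the Th2 genotypes, and that fit called 3. Genes called there numbered 2 with 8 separate libraries, 15 with the replicate block, 87 with 8 libraries and the block, 42 with the replicate set as a covariate, 46 in replicates 1 and 2, 1964 in replicates 3 and 4, and 0 to 7 leaving out a sample (4 without TDG iKO replicate 2, 7 without the TDG iKO sample of replicates 3 and 4). Small log2 differences changed sign. In replicates 3 and 4 alone they were -0.080 for Cd3d, -0.023 for Cd3g, -0.12 for Cd28, 0.15 for Pdcd1 and 0.25 for Icos. Cd4 was at 0.0083 with the replicate block, 0.10 in replicates 1 and 2 and 0.0083 with the set as a covariate. Icos was at 0.0053 with 8 libraries, 0.073 with 8 libraries and the block, 0.016 with the block and 0.015 with the covariate. Leaving out a sample gave -0.062 to 0.27 for Cd3d, -0.46 to 0.23 for Cd3e, -0.076 to 0.40 for Cd3g, -0.11 to 0.085 for Cd247, -0.13 to 0.19 for Cd4, -0.44 to 0.19 for Ctla4 and -0.37 to 0.22 for Icos. Some of the fits leaving out a sample dropped the whole sample of replicates 3 and 4 of a genotype. They held no term for the set, so genotype and set were then not balanced. The cause of the sign changes was not tested, and none of them but those of Cd3d and Icos in replicates 3 and 4 passed the threshold.

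Between the replicate sets 4 members and 3362 genes were called within TDG iKO cells and 3950 genes within WT cells, where fewer samples entered. Leaving out a sample gave 4 to 7 members and 3266 to 6424 genes; without the WT sample of replicates 3 and 4, Cd3d, Cd247 and Cd4 were not called, and without the TDG iKO one Cd247 was not. Cd3e, Cd3g, Ctla4 and Icos kept their direction and call in all 17 alternatives. Leaving out 1 library of a group of 2 in BMDMs assumes that the lone sample varies like the others. With KLA, leaving out a library gave 0 to 1 members called in the Tdg cohort, 0 with edgeR, and 0 to 1 in the Tet cohort, and Cd4 ranged from -0.70 to 0.028 and from -0.75 to 0.10 on the log2 scale. The replicate block changed no call of a member, and in BMDMs it called 4 genes in place of 0 between TDG iKO and WT at 0 h and 1809 in place of 1001 with KLA in the Tdg cohort. By the labels, same-numbered BMDM libraries share only a number. Their deviations correlated at 0.305 and 0.823 (TDG iKO against WT, 0 h and 6 h) and at 0.019 and 0.035 (TET iTKO). Between WT at 0 h and 6 h the correlations were 0.349 (Tdg cohort) and 0.533 (Tet cohort). Counts limit Pdcd1 in Th2 cells and every member but Cd4 in BMDMs.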
